A study of Mus musculus with 12 samples.

Results

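The genes described here are 10 nuclear receptor genes of the liver, Ppara, Ppard, Pparg, Rxra, Nr1h3, Nr1h4, Nr1i2, Nr1i3, Nr0b2 and Hnf4a. Members were found by matching the RefSeq accession of each array probe to a gene symbol, which gave 13 probes for the 10 genes. All 13 probes passed the filter on dim signal, among 31846 probes kept on the whole array, and the 10 genes stood among 14627 named genes. Each gene was represented by its brightest probe, and the other probes are described beside it. RNA of whole liver from C57BL/6 mice was read on 12 mouse arrays of 2 colours, with Cy5 for the sample and Cy3 for a common reference of pooled liver RNA. All mice carried the MycF/F alleles, and those called MycF/F,ERT2-Cre also carried an ERT2-Cre transgene. The diets were a control diet or 0.1% Wy-14643, a synthetic agonist of PPARα, for 2 days. MycF/F livers gave 1 control array, made from pooled liver RNA, and 3 arrays on Wy-14643. MycF/F,ERT2-Cre livers gave 4 arrays on each diet. Tamoxifen, which an ERT2-Cre needs to act, is not mentioned in the sources used here, nor are sex, age and the promoter that drives the transgene. Nothing in the labels says that the samples come from separate animals, so p-values measure only the spread between these samples, which may be technical.

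Nuclear receptors are transcription factors, most of which bind a small lipophilic ligand and then exchange corepressors for coactivators on DNA. In hepatocytes PPARα senses fatty acids, LXRα oxysterols, FXR bile acids, and PXR and CAR foreign compounds, and each of these binds DNA as a pair with an RXR. SHP lacks a DNA-binding domain and represses other receptors, and HNF4α maintains the expression of many genes of the differentiated hepatocyte.

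Every value below is a log2 ratio of the sample to the reference unless called a fold, and every log2 change is a difference of such ratios between groups. Changes were tested with limma over all genes with p-values adjusted by the Benjamini-Hochberg method, two-sided, and a gene was called at an adjusted p under 0.05. The arrays lay on 3 slides of 4, and the Cy5 signal over background was between 2.64 and 4.82 by array. Slide 1 stood apart in its share of outlier spots, 5.47% to 8.35% of each array against 0.904% to 1.84% on slides 2 and 3. Values missing below come from such spots, and the small number of arrays limits the precision. Myc, the gene with the floxed alleles, was read between -1.20 and -0.22 in MycF/F,ERT2-Cre livers and between 0.22 and 0.90 in MycF/F livers by the probe with 10 spots. By that probe the genotypes differed on Wy-14643 diet by -1.85 (SE 0.17, adjusted p over probes 0.00385). Another Myc probe differed there by -1.83 (SE 0.19, adjusted p over probes 0.00614). The brightest Myc probe differed by -0.57 there (SE 0.17, adjusted p = 0.281), and no probe was placed on the deleted stretch.

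Wy-14643 moved a minority of the 10 receptor genes in livers with the transgene, MycF/F,ERT2-Cre, the comparison with 4 arrays in each arm. Nr1i3, which encodes CAR, rose 1.62-fold, Nr1h4, which encodes FXR, fell 1.57-fold, and Rxra fell 1.30-fold by its brightest probe. The other 7 genes were not called, Ppara among them. Thus 3 of 10 members were called, where 16.4% of all 25166 genes tested were called in this comparison, 8.94% higher and 7.44% lower. The median log2 change of the 10 members was -0.01, beside 0.03 over all genes tested.

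**Figure D1:**
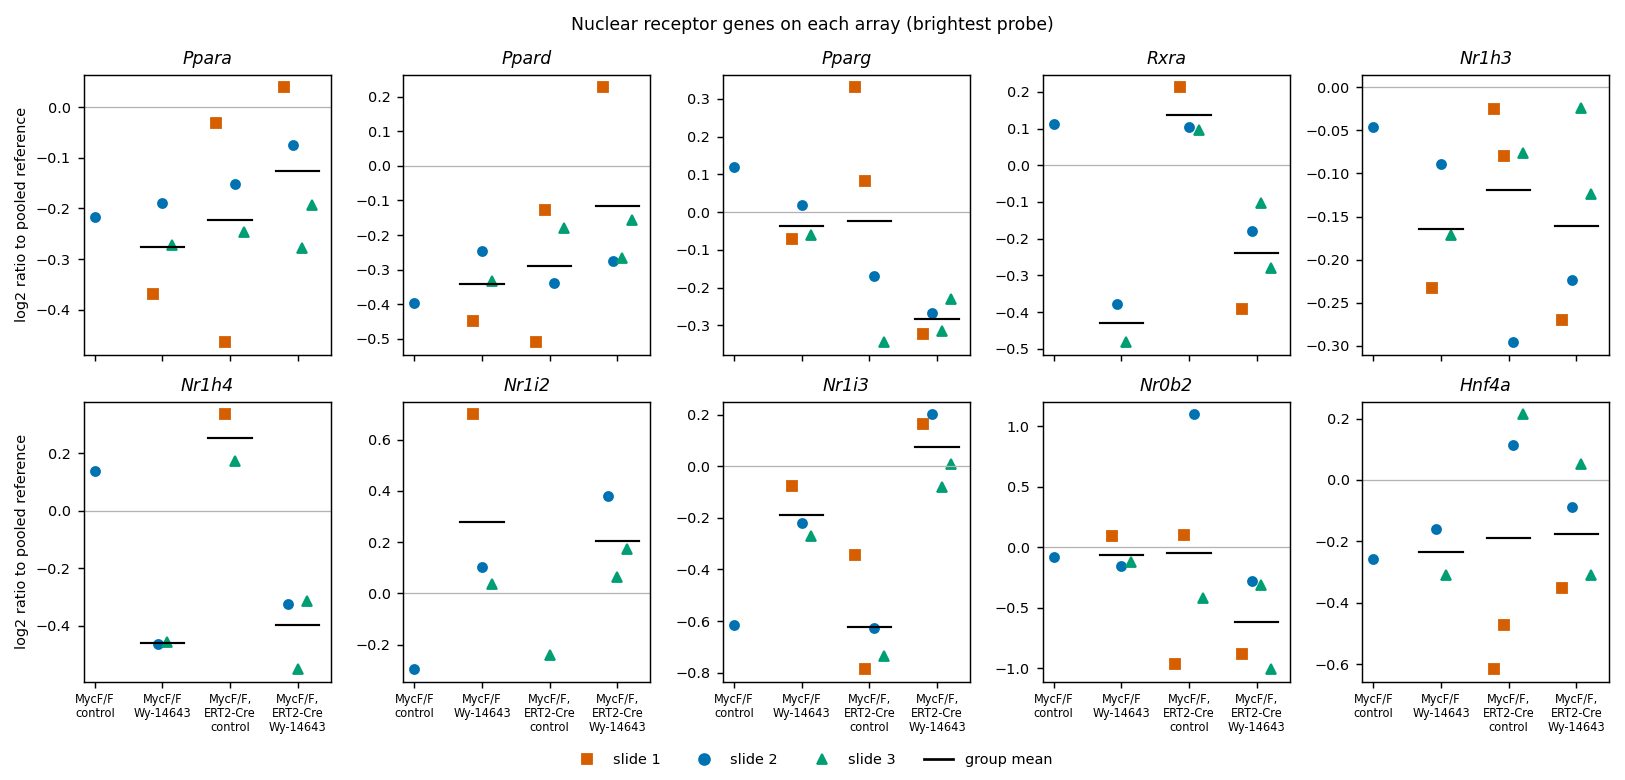
Log2 ratio to the pooled liver reference on each array for the 10 nuclear receptor genes (brightest probe, own vertical scale per gene), by group, with slide shown by colour and shape and the group mean as a line where a group has more than 1 value. Nr1i3 lies between -0.08 and 0.20 on the 4 MycF/F,ERT2-Cre arrays with Wy-14643 and between -0.79 and -0.34 on their 4 control arrays, while the Ppara groups overlap.

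The same diet in MycF/F livers was set against the 1 control array of that genotype, whose spread is assumed to be like that of the other groups. The same holds for any gene with 1 value left in a group, such as Nr1i2, Cyp8b1 and Cyp2c29 on MycF/F,ERT2-Cre control arrays. None of the 10 members was called there, where 6.59% of 24915 genes were called. The largest log2 changes were -0.60 for Nr1h4, 0.57 for Nr1i2, -0.54 for Rxra and 0.43 for Nr1i3. Of the 10 members 8 had the same sign in both genotypes, and Ppara and Nr0b2 did not. Some of these changes were small beside their SE, such as 0.02 for Hnf4a in both genotypes (SE 0.18 in MycF/F,ERT2-Cre and 0.31 in MycF/F livers). The drug comparisons of the genotypes share no array, but they share the reference, the slides and 1 estimate of the spread. The share of all genes with the same sign was not counted.

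**Figure D2:**
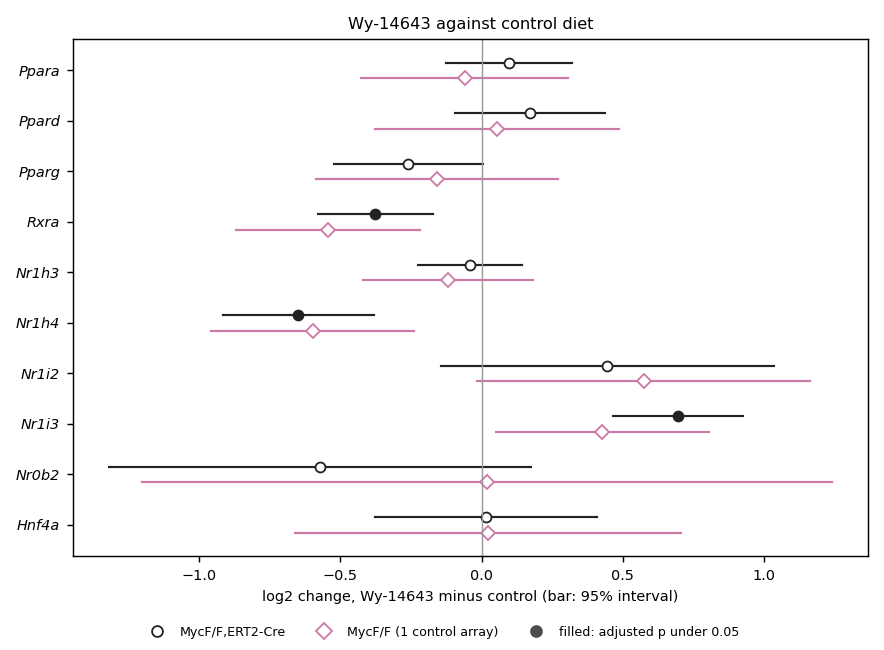
Log2 change on Wy-14643 against control diet for each receptor gene, with its 95% interval, in MycF/F,ERT2-Cre livers (circles) and in MycF/F livers (diamonds, 1 control array). Filled symbols mark an adjusted p under 0.05: Nr1i3 at 0.70, Nr1h4 at -0.65 and Rxra at -0.38, all in MycF/F,ERT2-Cre livers.

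Ppara encodes PPARα, the receptor that Wy-14643 binds and the main switch for fatty acid oxidation genes in hepatocytes. Its probe, the mean of up to 10 spots, read -0.22 on the MycF/F control array and -0.37, -0.19 and -0.27 on the MycF/F arrays on Wy-14643. In MycF/F,ERT2-Cre livers it read -0.03, -0.46, -0.15 and -0.25 on control diet and 0.04, -0.07, -0.28 and -0.19 on Wy-14643. The groups overlapped in both genotypes. The log2 change was 0.10 in MycF/F,ERT2-Cre livers (SE 0.10, 95% interval -0.13 to 0.32, adjusted p = 0.598) and -0.06 in MycF/F livers (SE 0.17, adjusted p = 0.945). Within slides the difference in MycF/F,ERT2-Cre livers was 0.29, 0.08 and 0.01 on slides 1, 2 and 3.

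Ppard encodes PPARδ, a broadly expressed fatty acid receptor. It read -0.40 on the MycF/F control array, and -0.45, -0.25 and -0.33 in MycF/F on Wy-14643. The MycF/F,ERT2-Cre arrays read -0.51, -0.13, -0.34 and -0.18 on control diet and 0.23, -0.28, -0.27 and -0.16 on Wy-14643. A single array of slide 1 held the one value above 0, and the groups overlapped. The log2 change was 0.17 (SE 0.12, adjusted p = 0.401), with 0.55 within slide 1, 0.06 within slide 2 and -0.03 within slide 3. It was 0.05 in MycF/F livers (SE 0.20, adjusted p = 0.963).

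Pparg encodes PPARγ, best known as the master regulator of fat cells and induced in fatty liver. Its probe of 10 spots read 0.12 on the MycF/F control array, and -0.07, 0.02 and -0.06 in MycF/F on Wy-14643. On control diet the MycF/F,ERT2-Cre arrays were spread from -0.34 to 0.33, with 0.08 and -0.17 between. On Wy-14643 they lay close together at -0.32, -0.27, -0.31 and -0.23, and 1 control array, replicate 4, was below all of them. The log2 change was -0.26 (SE 0.12, adjusted p = 0.184), and without that control array it was -0.37 (adjusted p = 0.0442), past the threshold. Without control replicate 1, the highest value, it was -0.14 (adjusted p = 0.402). In MycF/F livers it was -0.16 (SE 0.20, adjusted p = 0.821).

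Rxra encodes RXRα, the partner of PPARs, LXRs, FXR, PXR and CAR on DNA. Its brightest probe read 0.11 on the MycF/F control array and -0.38 and -0.48 on 2 MycF/F arrays on Wy-14643. In MycF/F,ERT2-Cre livers 3 control arrays read 0.21, 0.11 and 0.10, and the 4 arrays on Wy-14643 read -0.39, -0.18, -0.10 and -0.28. The diets did not overlap in either genotype, though MycF/F livers had only 2 values against 1. In MycF/F livers the diets also did not overlap for Nr1h3, Nr1h4, Nr1i2, Nr1i3 and Pparg. With 1 control value groups separate easily, and the share of all genes that did so in MycF/F livers was not counted. Among MycF/F,ERT2-Cre livers 4 of 10 members had groups that did not overlap, Nr1h4, Nr1i2, Nr1i3 and Rxra, where 21.8% of all genes tested did. Groups with fewer values separate more easily, and only Nr1i3 had 4 values on each diet. Nr1h4 had 3 on Wy-14643 and 2 on control diet, Nr1i2 had 3 and 1, and Rxra had 4 and 3. The count and the share are therefore not like for like. Rxra fell by 0.38 in MycF/F,ERT2-Cre livers (SE 0.09, n = 4 and 3, adjusted p = 0.0178), and by slide the differences were -0.61, -0.29 and -0.29. In MycF/F livers the log2 change was -0.54 (SE 0.15, n = 2 and 1, adjusted p = 0.0566). The same change of -0.54 passed the threshold when 1 array of the other genotype was left out, either replicate 1 on control diet (adjusted p = 0.0467) or replicate 1 given Wy-14643 (adjusted p = 0.0392).

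The second Rxra probe pointed the other way. It read -0.35 on the MycF/F control array, and -0.36, -0.39 and -0.41 in MycF/F on Wy-14643. On MycF/F,ERT2-Cre arrays it read -0.49, 0.04, -0.37 and -0.01 on control diet and 0.17, -0.05, 0.13 and -0.24 on Wy-14643. Its log2 change in MycF/F,ERT2-Cre livers was 0.21 (SE 0.13, adjusted p over all probes 0.306), and those groups overlapped. With the mean of the probes present on each array as the gene, the Rxra change was -0.0039 (adjusted p = 0.990). On MycF/F,ERT2-Cre control replicate 1 that mean was the second probe alone, at -0.49, since the brightest probe had no value there. The -0.0039 therefore mixes probes of unlike level. The brightest probe also missed the threshold in MycF/F,ERT2-Cre livers when control replicate 2 was left out (-0.34, adjusted p = 0.0634), when replicate 4 on Wy-14643 was (-0.36, adjusted p = 0.0514), and when all arrays of slide 1 were (-0.29, adjusted p = 0.0581). Whether the probes read different transcripts was not tested, since no probe was placed on the gene.

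Rxra has 2 promoter windows in the RefSeq table, and the one that holds motifs is shown here. Windows were the 250 bases before a start site, on the strand of the gene, build GRCm38.p6 of RefSeq. Capitals mark the hexamer AGGTCA that nuclear receptors recognize, read on either strand. This window is at chr2:27709042-27709291 on the plus strand, with hexamers that begin 87 and 48 bases before the start.
Rxra: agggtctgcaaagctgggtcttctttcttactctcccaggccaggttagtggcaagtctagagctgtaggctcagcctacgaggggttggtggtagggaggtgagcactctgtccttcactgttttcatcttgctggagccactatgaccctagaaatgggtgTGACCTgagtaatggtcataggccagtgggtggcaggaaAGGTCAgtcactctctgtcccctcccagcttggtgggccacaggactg

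Nr1h3 encodes LXRα, which senses oxysterols and drives cholesterol efflux and lipogenic genes. It varied least among the members whose 12 values were all present. The MycF/F control array read -0.05, and the MycF/F arrays on Wy-14643 read -0.23, -0.09 and -0.17. On MycF/F,ERT2-Cre arrays it read -0.03, -0.08, -0.30 and -0.08 on control diet and -0.27, -0.22, -0.02 and -0.12 on Wy-14643. These groups overlapped almost wholly. Its log2 change was -0.04 (SE 0.08, 95% interval -0.23 to 0.14, adjusted p = 0.805), and -0.12 in MycF/F livers (SE 0.14, adjusted p = 0.800).

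Nr1h4 encodes FXR, the bile acid receptor. Its single spot was an outlier on 4 of the 12 arrays, 3 of them on slide 1, which left 8 values. The MycF/F control array read 0.14, and 2 MycF/F arrays on Wy-14643 read -0.47 and -0.46. In MycF/F,ERT2-Cre livers 2 control arrays read 0.33 and 0.17, and 3 arrays on Wy-14643 read -0.32, -0.55 and -0.32. All 3 control values were above 0 and all 5 values on Wy-14643 were below -0.30, so the diets did not overlap. Nr1h4 fell by 0.65 in MycF/F,ERT2-Cre livers (SE 0.12, n = 3 and 2, adjusted p = 0.00630). The log2 change in MycF/F livers was -0.60 (SE 0.16, n = 2 and 1, adjusted p = 0.0650). Within MycF/F,ERT2-Cre livers only slide 3 held both diets for this gene, with a difference of -0.61.

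With the outlier spots kept, Nr1h4 had 12 values. The 4 MycF/F,ERT2-Cre control arrays then read 0.26, 0.24, 0.01 and 0.16 and the 4 on Wy-14643 read -0.26, -0.33, -0.56 and -0.32, again without overlap. The Nr1h4 call was lost when arrays were centred on their median in place of loess (-0.25, adjusted p = 0.672). Its promoter window, at chr10:89506659-89506908 on the minus strand, holds 1 hexamer, 214 bases before the start and on the opposite strand.
Nr1h4: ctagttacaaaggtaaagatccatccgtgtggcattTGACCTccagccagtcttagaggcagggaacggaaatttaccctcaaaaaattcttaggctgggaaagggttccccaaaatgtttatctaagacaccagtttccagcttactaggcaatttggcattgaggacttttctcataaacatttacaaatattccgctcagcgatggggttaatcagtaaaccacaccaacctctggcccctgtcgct

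Nr0b2 encodes SHP, a repressor that FXR induces and that lowers bile acid synthesis. It varied most of the members between control arrays of 1 genotype. The MycF/F control array read -0.08, and the MycF/F arrays on Wy-14643 read 0.09, -0.15 and -0.12. On MycF/F,ERT2-Cre control arrays it read -0.97, 0.10, 1.10 and -0.42, a range of 2.07 on the log2 scale, against -0.89, -0.28, -0.32 and -1.01 on Wy-14643. The diets overlapped. The log2 change was -0.57 (SE 0.34, 95% interval -1.32 to 0.18, adjusted p = 0.314), and leaving out arrays in turn moved it between -0.88 and -0.19, with no call. In MycF/F livers it was 0.02 (SE 0.56, adjusted p = 0.997).

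Nr1i2 encodes PXR, a receptor for drugs and other foreign compounds. Its single spot was an outlier on 4 arrays, among them 3 of the 4 MycF/F,ERT2-Cre control arrays. The MycF/F control array read -0.30, and the MycF/F arrays on Wy-14643 read 0.70, 0.10 and 0.04. The remaining MycF/F,ERT2-Cre control array read -0.24, and 3 arrays on Wy-14643 read 0.38, 0.07 and 0.17. Both control values were below all 6 values on Wy-14643. The log2 change was 0.45 in MycF/F,ERT2-Cre livers (SE 0.26, n = 3 and 1, adjusted p = 0.310) and 0.57 in MycF/F livers (SE 0.26, n = 3 and 1, adjusted p = 0.302), and neither was called. Without replicate 1 on Wy-14643, the highest value, the change in MycF/F livers was 0.36 (adjusted p = 0.361). With the outlier spots kept, the 4 control arrays of MycF/F,ERT2-Cre read 0.25, 0.35, -0.05 and -0.25 and overlapped with 1.08, 0.38, 0.06 and 0.17 on Wy-14643.

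Nr1i3 encodes CAR, which controls drug-metabolizing genes together with PXR. It read -0.62 on the MycF/F control array, and -0.08, -0.22 and -0.27 in MycF/F on Wy-14643. On MycF/F,ERT2-Cre arrays it read -0.34, -0.79, -0.63 and -0.74 on control diet and 0.16, 0.20, -0.08 and 0.01 on Wy-14643. No array on Wy-14643 was as low as any control array, in either genotype. Nr1i3 rose by 0.70 in MycF/F,ERT2-Cre livers (SE 0.11, n = 4 and 4, adjusted p = 0.000683), and the differences within slides 1, 2 and 3 were 0.73, 0.83 and 0.70. In MycF/F livers the log2 change was 0.43 (SE 0.17, n = 3 and 1, adjusted p = 0.209). Of 26 other settings 25 kept the Nr1i3 call, and the Cy5 signal alone, without the reference, did not (0.77, adjusted p = 0.0754).

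The promoter window of Nr1i3, at chr1:171213720-171213969 on the plus strand, holds no hexamer. It holds 1 E-box CACGTG, the palindromic site of MYC and of other basic helix-loop-helix factors, in capitals, 244 bases before the start.
Nr1i3: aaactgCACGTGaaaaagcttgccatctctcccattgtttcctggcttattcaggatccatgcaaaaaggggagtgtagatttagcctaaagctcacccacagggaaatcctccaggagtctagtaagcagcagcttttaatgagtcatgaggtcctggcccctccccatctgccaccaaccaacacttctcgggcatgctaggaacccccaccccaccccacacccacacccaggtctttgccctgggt
Across the 15 windows of the 10 members, 4 held the hexamer AGGTCA on either strand, where 14.0% of 32851 promoters of the same length did. These were 2 windows of Pparg, with hexamers 28 and 9 bases before the start, and the windows of Rxra and Nr1h4 shown above. The E-box was in 2 windows, those of Nr1i3 and Nr0b2, where 6.02% of promoters held it. The direct repeat AGGTCANAGGTCA (DR1), which a PPAR and RXR pair binds and which holds the hexamer 2 times, was in none of the 15 windows and in 0.0335% of promoters.

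Hnf4a encodes HNF4α, a receptor that sets hepatocyte identity. Its brightest probe read -0.26 on the MycF/F control array, and -0.16 and -0.31 on 2 MycF/F arrays on Wy-14643. On MycF/F,ERT2-Cre arrays it read -0.62, -0.47, 0.11 and 0.21 on control diet and -0.35, -0.09, 0.05 and -0.31 on Wy-14643. The 2 low control arrays were those of slide 1, and the groups overlapped. The log2 change was 0.016 (SE 0.18, 95% interval -0.38 to 0.41, adjusted p = 0.972), with 0.19, -0.20 and -0.34 within slides 1, 2 and 3. The other Hnf4a probes gave 0.21 (SE 0.24) and 0.08 (SE 0.26), and both were lowest on the first MycF/F,ERT2-Cre control array too. In MycF/F livers the change was 0.02 (SE 0.31, adjusted p = 0.993).

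**Figure D3:**
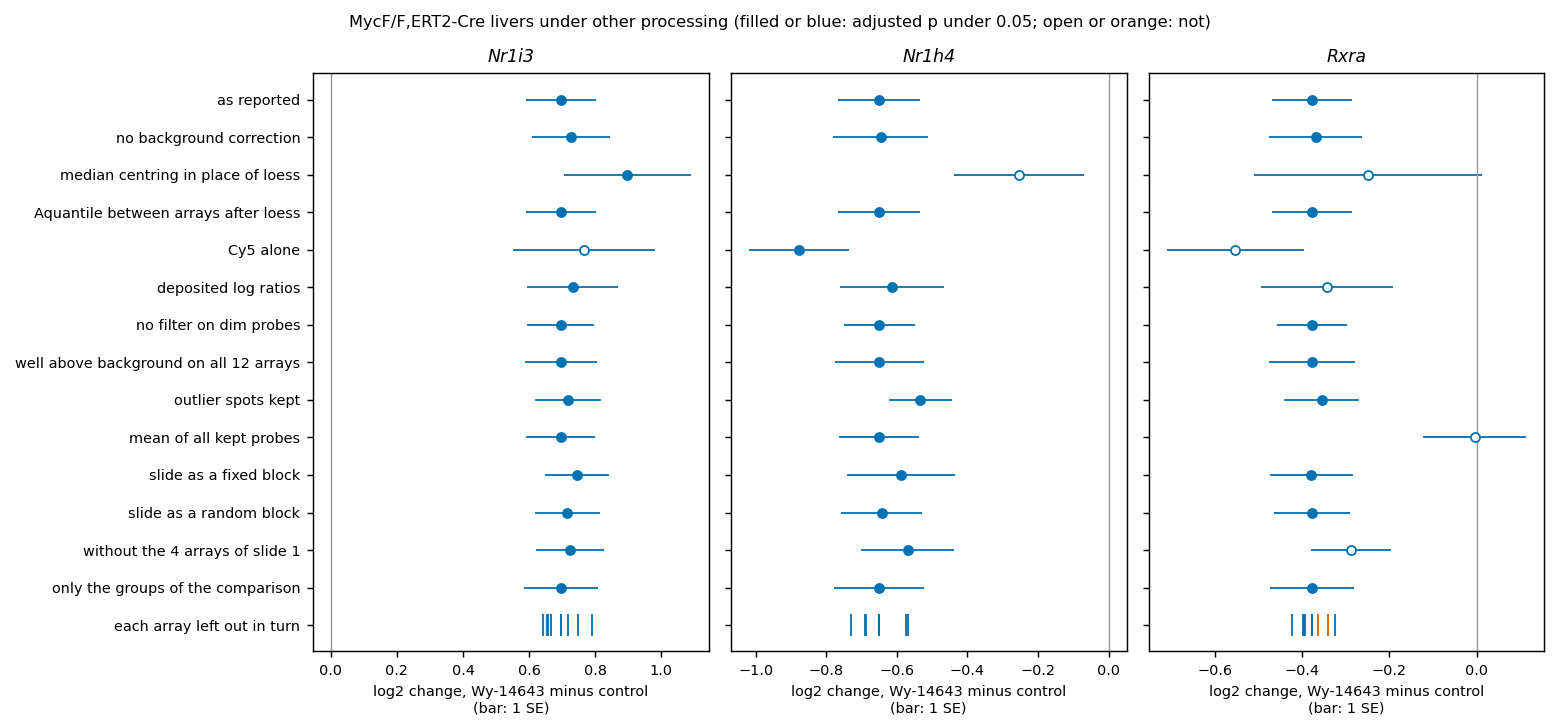
Log2 change of Wy-14643 against control diet (MycF/F,ERT2-Cre livers) for Nr1i3, Nr1h4 and Rxra as reported and under other processing, with 1 SE, and below them the values with each array left out in turn. Filled symbols and blue marks have an adjusted p under 0.05: Nr1i3 is open at 1 setting (Cy5 alone, 0.77), and Rxra with the mean of its probes present on each array lies at -0.0039.

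Genotype was compared within each diet. On Wy-14643 none of the 10 members was called, where 0.0675% of 25171 genes were, and limma called 17 of those genes and found 2128 at an unadjusted p under 0.05. The largest difference, with MycF/F subtracted from MycF/F,ERT2-Cre, was -0.56 for Nr0b2 (SE 0.37, 95% interval -1.37 to 0.25, adjusted p = 0.812). The groups of Nr0b2 did not overlap there, and neither did those of Pparg, whose difference was -0.25 (SE 0.13, adjusted p = 0.711). That is 2 of 10 members, where 13.8% of all genes tested had groups that did not overlap. Nr1i3 was 0.26 higher in MycF/F,ERT2-Cre livers (SE 0.11, 95% interval 0.01 to 0.51, unadjusted p = 0.0412), which did not pass adjustment (adjusted p = 0.560). Its groups overlapped, and the differences within slides were 0.24, 0.42 and 0.23.

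On control diet, against the 1 MycF/F array, 0 of 10 members were called, with 0% of 24902 genes called by limma and 441 at an unadjusted p under 0.05. Differences of the members ran from -0.14 for Pparg to 0.12 for Nr1h4. For the interaction, the difference between the drug changes of the genotypes, 0 of 10 members were called, with 0% of 24877 genes called and 541 at an unadjusted p under 0.05. It was 0.27 for Nr1i3 (SE 0.20, 95% interval -0.17 to 0.71) and -0.59 for Nr0b2 (SE 0.66, 95% interval -2.03 to 0.84). The change of Nr1i3, Nr1h4 and Rxra is therefore not shown to differ between the genotypes.

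**Figure D4:**
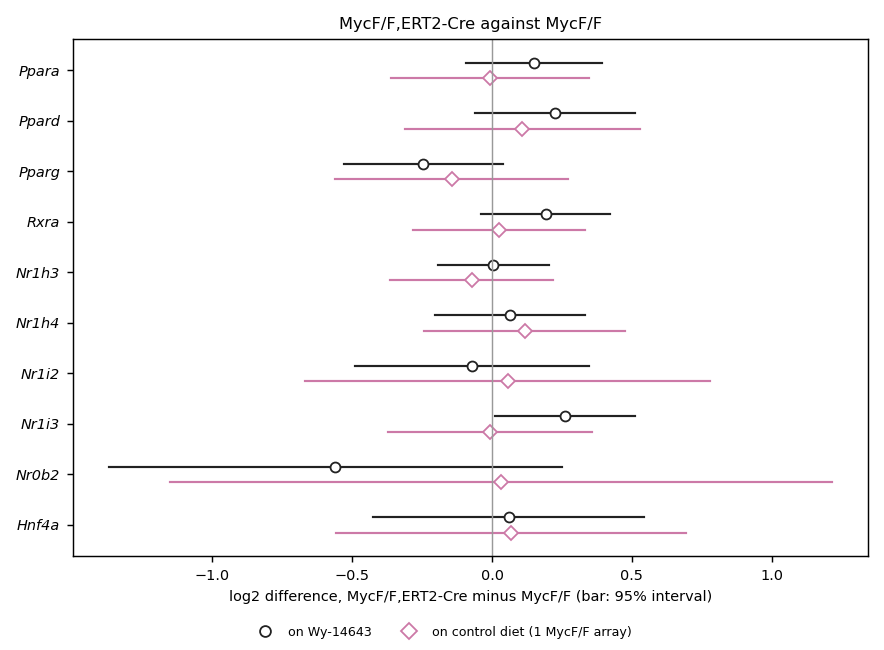
Log2 difference of MycF/F,ERT2-Cre from MycF/F livers for each receptor gene with its 95% interval, on Wy-14643 (circles) and on control diet (diamonds, 1 MycF/F array). No difference has an adjusted p under 0.05, and Nr0b2 has the widest intervals, -1.37 to 0.25 on Wy-14643.

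Beyond the 10 members, 33 of 39 other nuclear receptor genes were measured in MycF/F,ERT2-Cre livers. Among these 1 rose with Wy-14643 and 2 fell, with a median log2 change of 0.05. Over all 25166 genes tested in this comparison 16.4% were called, 8.94% higher and 7.44% lower. Esr1, the estrogen receptor, fell by 1.43 (SE 0.14, adjusted p = 2.37e-05) and also in MycF/F livers, by 1.50 (adjusted p = 0.00177). Esrra, a regulator of mitochondrial genes, fell by 0.49 (SE 0.08), and Nr2c1, an orphan receptor, rose by 0.41 (SE 0.12).

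Among 23 coregulators, the proteins that receptors recruit to activate or silence genes, 4 rose and 4 fell, with a median of -0.03. Lpin1, a phosphatidate phosphatase that also coactivates PPARα, fell by 2.59 (SE 0.38, adjusted p = 0.000674) and in MycF/F livers by 2.86 (adjusted p = 0.0109). Tbl1xr1, a subunit of the corepressor complex, rose by 0.73 (SE 0.12), and Ppargc1b, a coactivator, rose by 0.63 (SE 0.18). Of 10 other hepatocyte transcription factors 2 fell and none rose, Onecut1 by 0.95 (SE 0.17) and Cebpa by 0.69 (SE 0.19). That count is near the 16.4% called over all genes tested.

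Known target genes of the receptors were counted in that comparison, where 16.4% of all genes tested were called. The lists were chosen with earlier results of these data known. Of 18 measured PPARα targets 17 rose and none fell, with a median log2 change of 2.77, while Ppara itself was not called. The highest were Cyp4a14 at 4.65 (SE 0.35) and Cyp4a10 at 4.45 (SE 0.18), both fatty acid hydroxylases. Of 10 genes known as PPARγ targets 5 rose and none fell, with a median of 1.32. Cidec, a lipid droplet protein, rose by 3.67 (SE 0.13) and Fabp4, a fatty acid carrier, by 3.13 (SE 0.20). The log2 change of Pparg itself was -0.26 and was not called. Whether PPARγ, PPARα or another factor raised the genes of this list was not tested. None of 4 measured adipocyte markers was called, and their array means lay between -0.08 and 0.05 on Wy-14643 and between -0.04 and 0.08 on control diet. The adipocyte markers Adipoq, Cfd and Plin1 are also in the PPARγ target list, so these lists are not separate readings.

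Targets of the sterol and bile acid receptors moved in both directions. Of 13 LXR targets 3 rose and 1 fell, with a median of -0.28: Lpcat3, a phospholipid acyltransferase, rose by 1.97 (SE 0.14) and Pltp, the phospholipid transfer protein, by 0.71 (SE 0.18), and Srebf1, the lipogenic factor, fell by 0.75 (SE 0.17). Of 7 measured FXR targets 1 rose and 3 fell, with a median of -0.50. Fetub, a secreted protein, fell by 1.39 (SE 0.10) and Slc27a5, which activates bile acids for conjugation, by 0.97 (SE 0.12), and Abcb4, the phospholipid exporter of bile, rose by 0.60 (SE 0.09). Among 5 bile acid genes known to be repressed through SHP, Cyp8b1 rose by 1.23 (SE 0.19, n = 3 and 1), and Cyp7b1 and Slc10a1 fell by 1.89 (SE 0.35) and 0.63 (SE 0.17).

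The targets of CAR, whose gene rose, did not move as a group. Of 11 measured CAR targets 3 rose and 4 fell, with a median of -0.05. Gadd45b, a stress-response gene, rose by 3.44 (SE 0.39) and Abcc4, an organic anion exporter, by 1.72 (SE 0.15). The cytochrome Cyp2c29 fell by 1.98 (SE 0.18, n = 2 and 1) and Cyp2c37 fell by 1.95 (SE 0.15), and both belong to a family of near-identical genes whose transcripts a probe may not tell apart. Of 16 PXR targets 2 rose and 3 fell, with a median of -0.18. The uptake transporter Slco1a4 fell by 3.26 (SE 0.29) and the glutathione transferase Gstm1 by 1.18 (SE 0.18), and the aldehyde dehydrogenases Aldh1a1 and Aldh1a7 rose by 0.90 (SE 0.10) and 0.49 (SE 0.12).

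HNF4α targets fell more often than they rose, 7 against 2 of 16 measured, with a median of -0.49. Pklr, the liver pyruvate kinase, fell by 2.74 (SE 0.21) and Apoc3, an apolipoprotein, by 2.35 (SE 0.18), while Mttp, which loads lipid onto lipoproteins, rose by 1.61 (SE 0.13). Hepatocyte markers, which share Ttr and Apoa1 with that list, moved with the diet too. Of 5 measured 4 passed the test and were lower, with Ahsg at a log2 change of -1.92 (SE 0.12). Their array means were between 1.08 and 1.31 on MycF/F,ERT2-Cre control arrays and between -0.24 and 0.27 on Wy-14643. Kupffer cell markers, of which 4 of 7 fell, had array means of 0.15 to 0.95 and of -0.37 to -0.22. Among those that fell, Adgre1 changed by -0.83, and its other probe by -0.10. Each array mean covers the markers with a value on that array. The hepatocyte and Kupffer cell means therefore do not all rest on the same genes. In whole liver, fewer cells of a type and less RNA per cell cannot be told apart, and the part of these shifts in the receptor values was not tested.

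**Figure D5:**
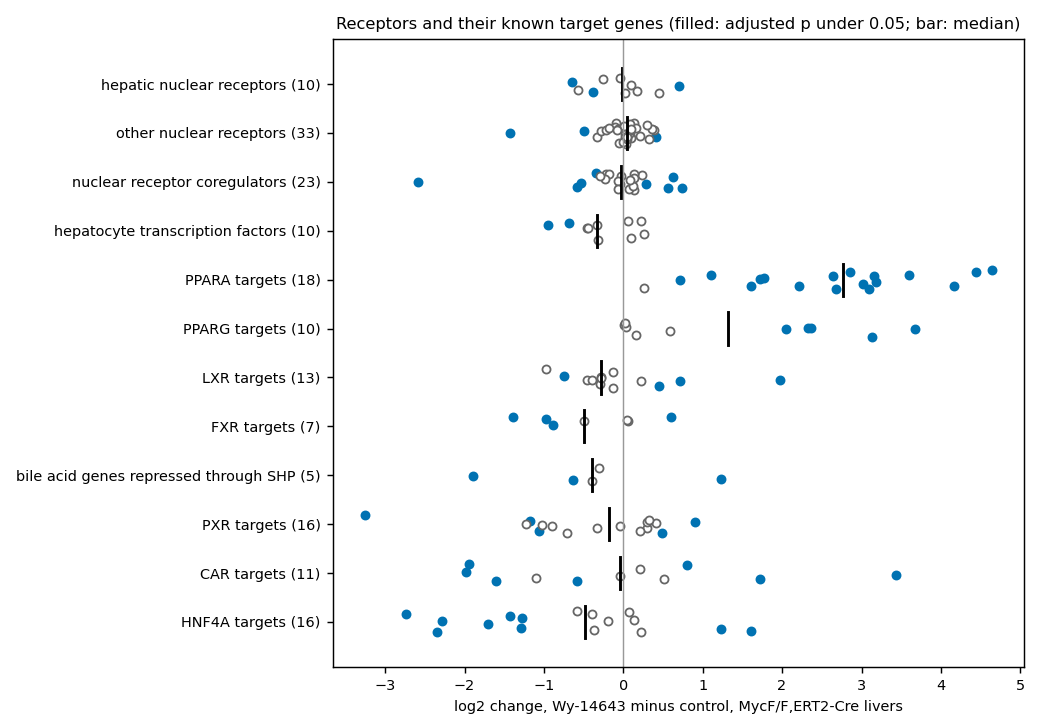
Log2 change of Wy-14643 against control diet (MycF/F,ERT2-Cre livers) for each measured gene (point), by list, with the number measured in brackets, filled where the adjusted p was under 0.05 and with a bar at the median. The PPARA target list is centred at 2.77, the receptor genes at -0.01 and the CAR target list at -0.05.

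For the 6 members with 12 values, the genes whose log2 ratios were most like theirs over the 12 arrays were listed, 3 for each, out of 11640 genes. For Nr1i3 they were Eif1 (Pearson r = 0.951), a translation initiation factor, Mgst3 (r = 0.944), a microsomal glutathione transferase, and Dbi (r = 0.943), the acyl-CoA-binding protein. All 3 rose in MycF/F,ERT2-Cre livers given Wy-14643, Eif1 by 0.48, Mgst3 by 1.43 and Dbi by 1.42. For Ppara they were Plaat1 (r = 0.951), Olfr1022 (r = 0.880) and Pyroxd1 (r = 0.862), for Ppard Tiparp (r = 0.913), Slc35c1 (r = 0.896) and Pkd2 (r = 0.895), and for Pparg BC052040 (r = 0.894), Spata24 (r = 0.889) and Rbfa (r = 0.876). For Nr1h3 they were Itpk1 (r = 0.949), Exd2 (r = 0.894) and Hivep2 (r = 0.886), and for Nr0b2 Tnpo1 (r = 0.892), Dyrk3 (r = 0.864) and Aplf (r = 0.837). None of these 15 was called on Wy-14643. These values describe 12 arrays that share a reference, slides and diet groups.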

How the data were processed

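Whole-liver RNA of 12 samples in 4 groups was measured on 2-colour Agilent arrays, 4 on each of 3 slides. Per the file headers, the authors deposited spot intensity values (medians of Cy5, Cy3 and local background) from Agilent Feature Extraction 11.0.1.1, and a log10 ratio of Cy5 to Cy3, used here only as an alternative. From the intensities, normexp (offset 50) and loess within each array gave log2 ratios (limma 3.58.1 under R 4.3.3, with the packages statmod, version 1.5.0, and data.table, version 1.17.8). Spots marked as outliers in either channel were left out and spots of 1 probe averaged. Probes were kept if well above background in Cy5 on at least 3 arrays (a share of 0.5 of their spots). Of 17440 RefSeq accessions 16792 matched a symbol in the GRCm38.p6 table.

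lmFit and eBayes with 1 mean per group (8 residual degrees of freedom) gave 5 comparisons, and code was tested on simulated data. Of the 25260 genes or accessions, 4226 lacked a value on at least 1 array. Named beside the members are, per list, up to 2 called genes with the highest and 2 with the lowest change, and for each member with 12 values the 3 most like it. The members and lists were chosen with earlier results of these data known. Alternatives covered background correction, normalization, filters, probe choice, slide, replicate number and each array left out. The planned protein comparison was not made, because no protein sequences were used here.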

Additional observations from a re-analysis of the deposited data

How the results depend on the processing

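In MycF/F,ERT2-Cre livers the count of 3 members called on Wy-14643 became 1 (Nr1i3) with median centring in place of loess. There 834 genes were called in place of 4123, 69.7% of them higher in place of 54.6%. With Cy5 alone the count was 2 (Nr1h4 and Ppard), where 1287 genes were called. With the deposited log ratios the count was also 2 (Nr1h4 and Nr1i3), where 3623 of 25166 genes were called. The same 2 were called with the mean of all kept probes, where 4125 of 25197 genes were called. They were also called without the 4 arrays of slide 1, where 4471 of 25046 genes were called. The count of members ran from 2 to 4 with each array left out, where 3118 to 4123 genes were called. In MycF/F livers the count of 0 became 1 without the filter on dim probes (Rxra), with outlier spots kept (Nr1h4) or with slide as a random block (Rxra), 2 without the 4 arrays of slide 1 (Rxra and Nr1h4), and 0 to 1 with each array left out. All genes called there numbered 1643, and 189 with median centring, 256 with Cy5 alone, 1058 with the deposited log ratios and 2838 without slide 1. For genotype on Wy-14643 diet, where 17 genes were called, settings gave 0 (median centring, Cy5 alone, the deposited log ratios, the replicate block) to 110 (without slide 1), 0 to 27 with each array left out, and no member. On control diet Cy5 alone gave 4 genes and leaving out slide 1 gave 2. No call of a member changed sign in the settings run. Rxra was called in 19 of 26 settings, and missed the threshold also with the deposited log ratios (-0.34, adjusted p = 0.187) and with Cy5 alone (-0.55, adjusted p = 0.0984), where Ppard passed it (0.56, adjusted p = 0.0376). Replicate numbers are shared by groups, but only 6 of 10 same-numbered pairs deviated together with a correlation over 0.1 and 4 of 11 arrays correlated best with their own number, so they were not taken as pairs. With the replicate number as a block, 2 members were called in MycF/F,ERT2-Cre livers (Nr1i3 and Rxra, with Nr1h4 at -0.49, adjusted p = 0.143) among 4492 genes, and 1 in MycF/F livers (Nr1i2 at 0.99, adjusted p = 0.0380). Outlier spots left Nr1h4 and Nr1i2 with 8 values each.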

Other observations

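Markers of other liver cells were read beside the receptors in MycF/F,ERT2-Cre livers, where 16.4% of all genes tested were called on Wy-14643. Of 6 endothelial markers 1 was called on Wy-14643, Cdh5, which fell by 0.45 (SE 0.14), and of 7 stellate cell markers 2 fell, Col1a1 by 1.10 (SE 0.24) and Reln by 0.49 (SE 0.10). Of 5 cholangiocyte markers Sox9 rose by 0.55 (SE 0.12) and Spp1 fell by 0.56 (SE 0.11). Of 5 lymphocyte markers 2 fell, Cd79b by 0.57 (SE 0.12) and Nkg7 by 0.45 (SE 0.12).

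Among the receptor genes themselves, the ratios of Rxra and Nr1h4 had a Pearson r of 0.799 over the 7 arrays with both values, and those of Nr1i2 and Nr1i3 had 0.781 over 8 arrays. Nr1h3 and Nr1i2 had -0.796 over 8 arrays, Nr1i3 and Rxra had -0.759 over 10 arrays, and Nr1h4 and Nr1i2 had -0.733 over 7 arrays. The arrays share slides and diet groups, and these values are a description.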
